A study of Mus musculus with 12 samples.

Results

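Immediate-early genes are the first genes that a cell transcribes after a stimulus, without new protein synthesis. The group described here held 10 of them, Fos, Fosb, Jun, Junb, Egr1, Atf3, Ier2, Ier3, Dusp1 and Btg2, out of 18426 genes tested. A probe belonged to the group when the scanner file gave it one of these names, which took in 14 probes of 41174. The genes were measured in bone marrow-derived macrophages from mice of 2 inbred strains, C57BL6/J and Balb/cAnNCrl, here called C57BL6 and Balb/c. Each strain had 3 groups of 2 arrays: mock cells incubated for 18 h without the cytokine, cells given mouse recombinant IL-4 (interleukin-4) at 10 ng/ml for 4 h, and cells given it for 18 h. All 12 samples came from marrow grown with human recombinant CSF1, the macrophage growth factor, at 200 ng/ml, with new medium on day 5, replating on day 6 and IL-4 from day 7. Each was a pool of 2 males and 1 female aged 8 to 12 weeks. The protocol text common to all samples also describes LPS, which no label of these 12 samples names. No mock was incubated for 4 h, so in the 4 h groups the effect of IL-4 and that of the incubation time cannot be told apart. Since each array is a pool, p-values measure the spread between pools and not between mice.

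Fos and Fosb pair with Jun and Junb to form the dimeric transcription factor AP-1, and Atf3 is a basic leucine zipper protein that can join them and often represses. Egr1 is a zinc finger activator. Dusp1 removes the activating phosphates from p38, JNK and ERK and so ends the kinase signal that switches these genes on, while Btg2 restrains proliferation, Ier2 is a small nuclear protein and Ier3 (IEX-1) a membrane-bound regulator of survival and of NF-kB and ERK signals. In macrophages most of them are known as rapid targets of growth factors and of Toll-like receptor ligands. IL-4 acts mainly through the JAK kinases and STAT6.

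Promoter sequences, taken from RefSeq on GRCm38.p6, were in the table used here for 8 of the 10 genes and not for Egr1 and Ier2. The bases before the start site are printed for Fos and Dusp1, called lower after 4 h of IL-4, for Ier3, called higher, and for Btg2, which held the same full motif as Dusp1 and was called lower only with replicate number as a block. Capitals mark the cyclic AMP response element (CRE), TGACGTCA, or its core TGACG wherever the latter stood alone, searched on both strands. The Fos piece is chr12:85473640-85473889, plus strand, the Dusp1 piece chr17:26508473-26508722, minus strand, the Btg2 piece chr1:134079156-134079405, minus strand, and the Ier3 piece chr17:35821463-35821712, plus strand.
Fos: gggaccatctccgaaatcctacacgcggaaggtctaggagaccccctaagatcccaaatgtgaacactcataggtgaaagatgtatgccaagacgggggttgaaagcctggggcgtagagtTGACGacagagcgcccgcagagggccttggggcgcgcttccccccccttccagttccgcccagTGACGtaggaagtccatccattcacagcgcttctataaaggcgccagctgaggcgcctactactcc
Dusp1: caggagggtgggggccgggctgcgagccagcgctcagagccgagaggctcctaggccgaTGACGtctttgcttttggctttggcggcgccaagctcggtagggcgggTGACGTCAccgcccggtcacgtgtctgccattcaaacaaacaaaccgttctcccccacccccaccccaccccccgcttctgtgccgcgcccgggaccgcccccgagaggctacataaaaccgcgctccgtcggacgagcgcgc
Btg2: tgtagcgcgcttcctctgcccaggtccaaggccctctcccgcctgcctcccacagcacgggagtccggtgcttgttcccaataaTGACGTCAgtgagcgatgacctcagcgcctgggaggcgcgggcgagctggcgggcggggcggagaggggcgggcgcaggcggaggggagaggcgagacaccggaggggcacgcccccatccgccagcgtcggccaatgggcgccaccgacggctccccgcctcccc
Ier3: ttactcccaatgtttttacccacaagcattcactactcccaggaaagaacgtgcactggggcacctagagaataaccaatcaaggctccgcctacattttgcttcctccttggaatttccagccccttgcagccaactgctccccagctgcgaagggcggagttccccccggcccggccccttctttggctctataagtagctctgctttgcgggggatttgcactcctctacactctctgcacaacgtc
The full CRE lay at -143 to -136 from the start site in Dusp1 and at -166 to -159 in Btg2, and it was in 1.79% of 32851 RefSeq promoters of the same length, 250 bases before to 50 after the start. The core, which every full CRE also contains, was in 6 of the 8 promoters and in 20.81% of all. In Fos it began at -129 and at -66, and Dusp1 had another one at -191. Ier3 and Jun held neither. For NF-kB-like and STAT sites only a fixed pattern each was searched for, found in 1.63% and 6.95% of all promoters. None of the 8 windows matched either. Other spellings or spacings of those sites were not searched for, so the windows, that of Ier3 included, may hold some. None of the 8 windows held the AP-1 site TGANTCA (7.81% of all promoters), the EGR site GCGTGGGCG (0.61%) or the CArG box (1.63%) that SRF binds. The serum response element of Fos is known to lie further upstream than these bases. A match is a run of letters and not a measured binding site.

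All 14 probes were well above background on all 12 arrays, except the dimmer of 2 Ier2 probes, which was so on 11, and none was saturated. Each level below is the log2 of the processed signal minus the 75th percentile of its array, so that 0 is a bright probe and 1 unit is a 2-fold difference. A gene with several probes is read from its brightest, and levels of different genes are not compared, since probes differ in brightness. Across the arrays 54.9% to 69.7% of spots were well above background, and replicates correlated at 0.974 to 0.989. The macrophage markers were well above background on all arrays, 7 of 7. The treatment was plain in the same samples: Socs1, a feedback inhibitor of JAK signalling, stood 5.21 ± 0.20 (SE) log2 units above mock at 4 h in C57BL6 (limma adjusted p = 7.12e-05) and 4.61 ± 0.20 above it in Balb/c (limma adjusted p = 0.000189).

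The main result was a split within the group. After 4 h of IL-4, Ier3 rose in both strains, by 17.4-fold in C57BL6 and 9.51-fold in Balb/c, and Fos fell in both, to 15.1% and 22.9% of mock. Dusp1 fell in C57BL6 to 18.9% of mock. At 18 h Ier3 was the one member still past the threshold. Without a block, Jun, Junb, Fosb, Egr1, Atf3, Ier2 and Btg2 passed it in no comparison. With replicate number or slide as a block, Atf3, Ier2 and Btg2 passed it in some. At 18 h Dusp1 and Atf3 in C57BL6 and Btg2 in Balb/c passed it with replicate number as a block.

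**Figure D1:**
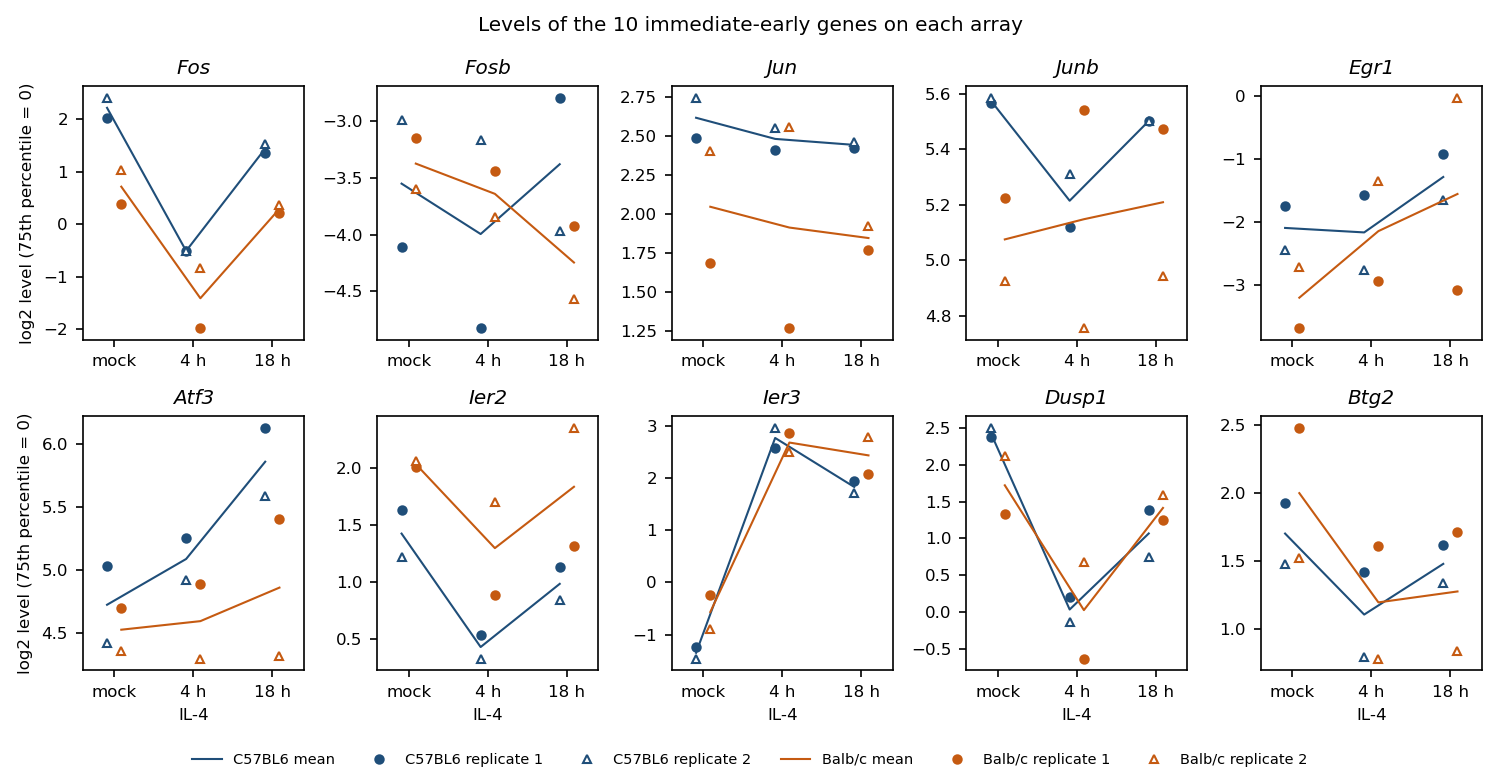
Log2 level of each gene on each of the 12 arrays, relative to the array's 75th percentile, for mock, IL-4 4 h and IL-4 18 h. Filled circles are replicate 1, open triangles replicate 2 and lines join group means, with C57BL6 in blue and Balb/c in orange. Fos and Dusp1 dip at 4 h and Ier3 climbs, while the Egr1 replicates of Balb/c at 18 h lie 3.06 log2 units apart. The y axes differ between genes.

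Fos, the inducible partner of AP-1, is at chr12:85473890-85477274 on GRCm38.p6. Its level in C57BL6 was 2.02 and 2.41 in the mock replicates, -0.51 and -0.51 at 4 h of IL-4, and 1.35 and 1.53 at 18 h. The Balb/c arrays gave 0.39 and 1.04 in mock, -1.98 and -0.84 at 4 h, and 0.21 and 0.37 at 18 h. Both 4 h arrays were below both mock arrays in each strain, and the 18 h arrays lay between them without overlap. In C57BL6 the 4 h change was -2.73 ± 0.37 log2 units (SE, limma, adjusted p = 0.00843, 95% interval -3.57 to -1.88). In Balb/c it was -2.13 ± 0.37 (limma adjusted p = 0.0371, interval -2.97 to -1.28). The call rests on few arrays: leaving out either 4 h array or mock replicate 2 took the C57BL6 adjusted p to between 0.0664 and 0.0774, and in Balb/c leaving out either mock array or 4 h replicate 1 took it to between 0.0934 and 0.178. By 18 h Fos was at 58.4% of mock in C57BL6 (limma adjusted p = 0.33) and 74.7% in Balb/c (limma adjusted p = 0.674). The difference from 4 h to 18 h was 1.95 ± 0.37 log2 units in C57BL6 (limma adjusted p = 0.0595) and 1.70 ± 0.37 in Balb/c (limma adjusted p = 0.0994), and neither passed the threshold. With replicate number as a block, both passed, at adjusted p = 0.0125 and 0.022. The Fos probe was printed on 10 spots of each array, whose SD within an array was 0.062 to 0.097 log2 units.

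Ranked by mean level, Fos was highest in C57BL6 mock, followed by C57BL6 18 h, Balb/c mock, Balb/c 18 h, C57BL6 4 h and Balb/c 4 h. The replicates of no group overlapped those of its neighbour in this order. In mock cells Fos stood 1.50 ± 0.37 log2 units lower in Balb/c than in C57BL6, which missed the threshold (limma adjusted p = 0.0587). The mock arrays of the strains shared no slide, so strain and slide cannot be told apart in this or any other difference between the mock groups. The summed linear signal of the 6 neutrophil markers on the array, relative to the 75th percentile, moved with strain as well, at 12.5 to 15.8 in C57BL6 mock and 3.54 to 4.29 in Balb/c mock; 4 of the 6 were well above background on all arrays, and each of the others on at least 1. The 4 B cell markers, 3 of them well above background on all arrays, summed to 2.28 to 3.27 in C57BL6 mock and 1.09 to 1.70 in Balb/c mock. Each sum follows mainly its brightest gene. By mean level over the arrays S100a9 was at 2.415 and the next neutrophil marker at -1.333, and Cd79b at 0.489 and the next B cell marker at -3.021. The dimmer stromal sum was also higher in C57BL6 mock, at 0.477 to 0.557 against 0.359 to 0.368 in Balb/c mock. So was the eosinophil sum, at 0.0425 to 0.0771 against 0.0345 to 0.0353, though of its genes Prg2 was well above background on 9 arrays and Epx on 2. The macrophage sum overlapped between the strains, at 627.8 to 700.3 in C57BL6 mock and 678.5 to 754.5 in Balb/c mock. The T cell, mast cell and basophil, dendritic cell and erythroid sums overlapped as well. The part of any of these lists in the strain difference was not tested. In a bulk sample fewer cells of a type and less RNA per cell cannot be told apart.

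The other AP-1 subunits gave no call. Jun, the partner of Fos, was at 2.49 and 2.75 in C57BL6 mock, 2.41 and 2.55 at 4 h, and 2.42 and 2.46 at 18 h. In Balb/c its levels were 1.69 and 2.40 in mock, 1.27 and 2.56 at 4 h, and 1.77 and 1.92 at 18 h. The groups overlapped in Balb/c at every time, and the Jun change at 4 h was -0.14 ± 0.40 log2 units in C57BL6 (limma adjusted p = 0.948, 95% interval -1.05 to 0.78). The Balb/c change was -0.13 ± 0.40 (limma adjusted p = 0.959). Jun was also on 10 spots per array, with an SD within an array of 0.037 to 0.090 log2 units.

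Junb, an AP-1 subunit that often opposes Jun, ranged from 4.75 to 5.59 over all arrays on the probe used. It was at 5.57 and 5.59 in C57BL6 mock, 5.12 and 5.31 at 4 h, and 5.50 and 5.50 at 18 h. Its Balb/c levels were 5.22 and 4.93 in mock, 5.54 and 4.75 at 4 h, and 5.47 and 4.94 at 18 h, so replicate 1 was above replicate 2 in all 3 Balb/c groups and the groups overlapped. The 4 h change was -0.36 ± 0.28 log2 units in C57BL6 (limma adjusted p = 0.626) and 0.07 ± 0.28 in Balb/c (limma adjusted p = 0.967). The 2 Junb probes start 38 bases apart and correlated at 0.641 over the 12 arrays. The other probe ran from 4.42 to 6.41 and gave 0.60 ± 0.57 log2 units at 4 h (limma adjusted p = 0.857) and 0.65 ± 0.57 at 18 h in Balb/c (limma adjusted p = 0.675), a larger difference than the first probe gave and likewise not called.

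Fosb, the second inducible Fos protein, was dim. Its levels were -4.11 and -2.99 in C57BL6 mock, -4.82 and -3.16 at 4 h, and -2.79 and -3.97 at 18 h, against -3.15 and -3.60, -3.44 and -3.84, and -3.92 and -4.57 in Balb/c. Groups overlapped in C57BL6 at both times, and the standard error of any Fosb change was 0.63 log2 units. At 4 h the change was -0.44 in C57BL6 (limma adjusted p = 0.841) and -0.27 in Balb/c (limma adjusted p = 0.944).

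Of the 10 genes Egr1 varied most between replicates, with an SD of up to 2.16 log2 units within a group. Its level was -1.74 and -2.45 in C57BL6 mock, -1.57 and -2.76 at 4 h, and -0.93 and -1.65 at 18 h. Balb/c cells were at -3.68 and -2.72 in mock, -2.94 and -1.35 at 4 h, and -3.09 and -0.03 at 18 h. Both 18 h arrays of C57BL6 were above both mock arrays, and in Balb/c the groups overlapped. The 18 h change was 0.81 ± 0.98 log2 units in C57BL6 (limma adjusted p = 0.75) and 1.64 ± 0.98 in Balb/c (limma adjusted p = 0.512). With normexp background correction these changes were -0.23 and 0.29, so the direction in C57BL6 depended on that choice. No Egr1 change against mock passed the threshold, and without a block the 95% interval in Balb/c at 18 h ran from -0.62 to 3.90. With replicate number as a block the SE at 18 h was 0.47, and neither strain passed (limma adjusted p = 0.293 in C57BL6 and 0.0722 in Balb/c). Within a replicate number the change from mock to 18 h was 0.81 and 0.80 in C57BL6 and 0.60 and 2.69 in Balb/c.

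Atf3, which dampens inflammatory transcription in macrophages, was at 5.03 and 4.42 in C57BL6 mock, 5.25 and 4.92 at 4 h, and 6.13 and 5.59 at 18 h. The Balb/c levels were 4.69 and 4.35 in mock, 4.89 and 4.29 at 4 h, and 5.40 and 4.31 at 18 h. Only the C57BL6 18 h arrays were both above their mock arrays. That difference was 1.14 ± 0.41 log2 units, or 2.20-fold, and missed the threshold (limma adjusted p = 0.189), but passed it with replicate number as a block (limma adjusted p = 0.0151). With slide as a block it was 1.37 log2 units (limma adjusted p = 0.0432). In Balb/c the same difference was 0.33 ± 0.41 (limma adjusted p = 0.774).

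Dusp1, at chr17:26505591-26508472, is the phosphatase that closes the MAP kinase signal. Its level in C57BL6 was 2.37 and 2.50 in mock, 0.20 and -0.14 at 4 h, and 1.39 and 0.74 at 18 h. The Balb/c levels of Dusp1 were 1.33 and 2.12 in mock, -0.63 and 0.68 at 4 h, and 1.24 and 1.58 at 18 h. As for Fos, both 4 h arrays lay below both mock arrays in each strain. The 4 h change was -2.41 ± 0.45 log2 units in C57BL6 (limma adjusted p = 0.0295), and it was not called after leaving out any 1 of the 4 arrays (limma adjusted p = 0.107 to 0.208). In Balb/c the change of -1.70 ± 0.45 was not called (limma adjusted p = 0.154), while with replicate number as a block it was (limma adjusted p = 0.0278). At 18 h Dusp1 was at 38.6% of mock in C57BL6, where both arrays were still below mock (limma adjusted p = 0.154, or 0.026 with the block), and at 80.8% in Balb/c, where they overlapped it (limma adjusted p = 0.818). From 4 h to 18 h Dusp1 differed by 1.39 ± 0.45 log2 units in Balb/c (limma adjusted p = 0.288, or 0.0488 with the block) and by 1.03 ± 0.45 in C57BL6 (limma adjusted p = 0.455). Over the 12 arrays the levels of Dusp1 and Fos had a Pearson correlation of 0.859, given as a description of arrays that share groups and replicates.

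Btg2 was at 1.92 and 1.48 in C57BL6 mock, 1.42 and 0.79 at 4 h, and 1.62 and 1.34 at 18 h. Balb/c cells had 2.48 and 1.52 in mock, 1.61 and 0.78 at 4 h, and 1.71 and 0.84 at 18 h. Replicate 1 was the higher in all 6 groups, and the Balb/c groups overlapped. Without a block no Btg2 change passed the threshold: -0.59 ± 0.45 log2 units at 4 h in C57BL6 (limma adjusted p = 0.617) and -0.80 ± 0.45 in Balb/c (limma adjusted p = 0.674). With replicate number as a block the same differences passed, at adjusted p = 0.023 and 0.0199, as did the Balb/c difference of -0.72 at 18 h (limma adjusted p = 0.0135). The 3 Btg2 probes, with 1822 and 265 bases between neighbouring starts, correlated with each other at 0.935 to 0.962, and all had a lower mean at 4 h than in mock in both strains.

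Ier2 differences ran in the direction of those of Fos and Dusp1, at a smaller size. Its level was 1.63 and 1.22 in C57BL6 mock, 0.53 and 0.33 at 4 h, and 1.13 and 0.84 at 18 h, against 2.00 and 2.06, 0.89 and 1.70, and 1.32 and 2.35 in Balb/c. Both 4 h arrays were below both mock arrays in each strain. The 4 h change was -0.99 ± 0.38 log2 units in C57BL6 (limma adjusted p = 0.24) and -0.74 ± 0.38 in Balb/c (limma adjusted p = 0.615). With replicate number as a block the C57BL6 change was called (limma adjusted p = 0.0414) and the Balb/c change was not (limma adjusted p = 0.134). With slide as a block both were, at -0.99 (limma adjusted p = 0.0251) and -1.20 log2 units (limma adjusted p = 0.0393). The dimmer Ier2 probe, which starts 198 bases away, gave -0.38 and 0.11 and correlated with the brighter one at 0.569.

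Ier3, at chr17:35821713-35822911, went the other way. Its level in C57BL6 was -1.24 and -1.46 in mock, 2.58 and 2.96 at 4 h, and 1.94 and 1.72 at 18 h. Balb/c levels were -0.24 and -0.89 in mock, 2.86 and 2.50 at 4 h, and 2.09 and 2.79 at 18 h. Every array with IL-4 was above every mock array, by at least 1.97 log2 units. In C57BL6 Ier3 rose by 4.12 ± 0.31 log2 units at 4 h (limma adjusted p = 0.00102) and 3.18 ± 0.31 at 18 h (limma adjusted p = 0.00192). In Balb/c it rose by 3.25 ± 0.31 at 4 h (limma adjusted p = 0.0048) and 3.00 ± 0.31 at 18 h (limma adjusted p = 0.00235). Leaving out any 1 of the arrays compared kept all 4 calls, with adjusted p from 0.00987 to 0.028. From 4 h to 18 h the level differed by -0.94 ± 0.31 in C57BL6 (limma adjusted p = 0.275) and by -0.25 ± 0.31 in Balb/c (limma adjusted p = 0.908), so no decline passed the test.

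**Figure D2:**
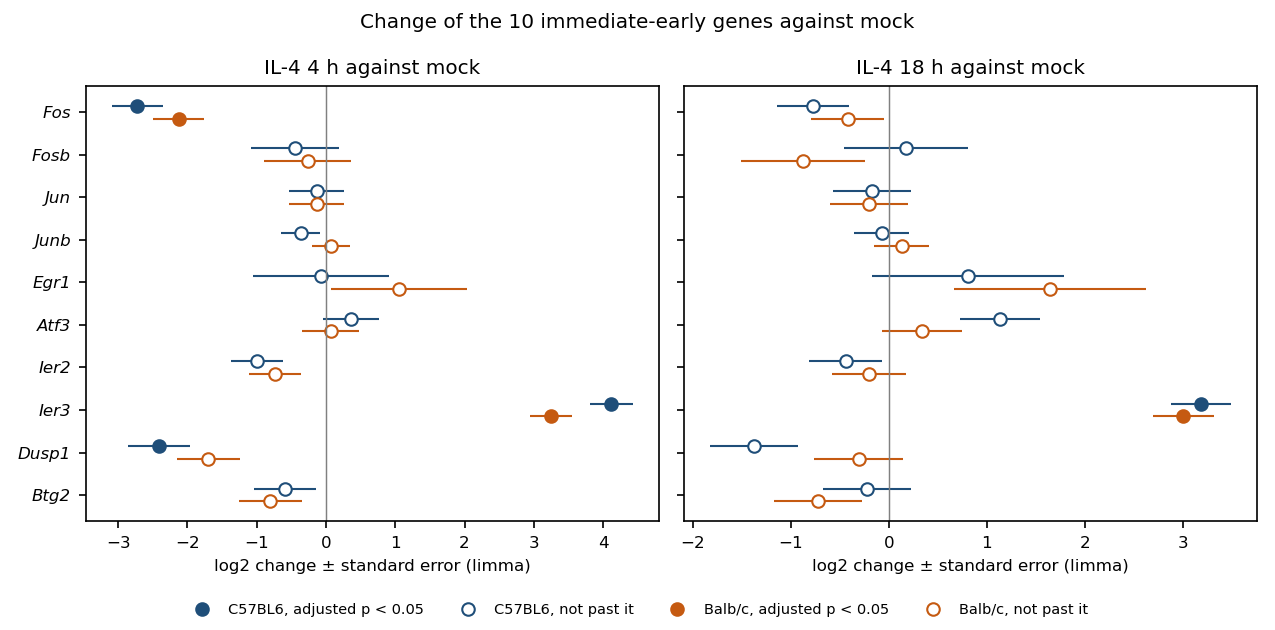
Log2 change against mock for the 10 genes after 4 h (left) and 18 h (right) of IL-4, with bars for the limma standard error, C57BL6 in blue and Balb/c in orange. Filled points passed an adjusted p of 0.05: Ier3 in all 4 comparisons, Fos at 4 h in both strains and Dusp1 at 4 h in C57BL6. The x axes of the panels differ.

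Counted over the group, 1 of 10 members rose and 2 fell at 4 h in C57BL6, where 1.6% of all genes tested were called higher and 1.76% lower. At 18 h 1 rose and 0 fell, against 1.69% and 2.77% of all genes. In Balb/c 1 rose and 1 fell at 4 h, against 0.95% and 0.472%, and 1 rose and 0 fell at 18 h, against 1.39% and 2.44%. The median log2 change of the members at 4 h was -0.40 in C57BL6 and -0.20 in Balb/c, beside -0.04 and 0.02 over all genes. Between 18 h and 4 h no member was called in either strain, where 0.971% of genes in C57BL6 and 0.885% in Balb/c were called, and 2 members in each strain had an unadjusted p under 0.05, as had 11% and 10.7% of all genes. With replicate number as a block, 5 members were called at 4 h and 3 at 18 h in C57BL6, beside 16.7% and 17.6% of all genes, and 4 and 2 in Balb/c, beside 7.13% and 14.8%. The block called 1 member between 18 h and 4 h in C57BL6 and 2 in Balb/c, beside 6.84% and 5.57% of genes. The comparisons of a strain with its mock share the mock arrays, and the 18 h against 4 h comparison shares arrays with both. The group was chosen with earlier results of these data known, so these counts are a description.

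**Figure D3:**
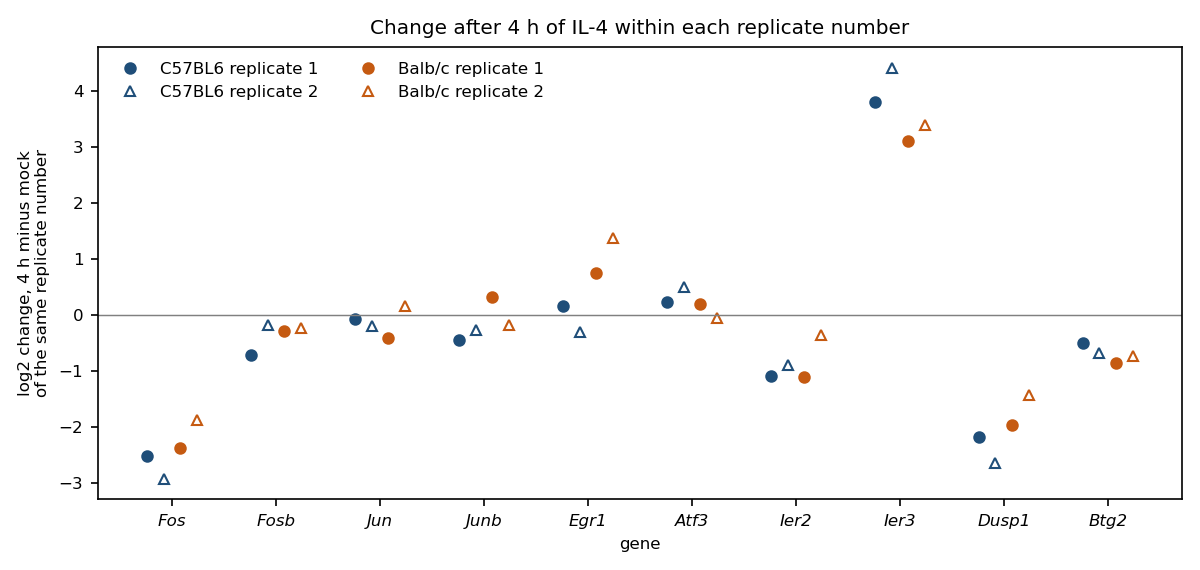
Log2 change from mock to 4 h of IL-4 within each replicate number, as 4 points per gene, circles for replicate 1, triangles for replicate 2, C57BL6 in blue and Balb/c in orange. Fos, Fosb, Ier2, Dusp1 and Btg2 lie below 0 at all 4 points and Ier3 above 3 at all 4.

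Within a replicate number, the change from mock to 4 h ran from -2.93 to -1.88 log2 units for Fos and from -2.64 to -1.43 for Dusp1. For Btg2 it ran from -0.87 to -0.51, a narrower span than that of its levels within any 1 group of Balb/c. Ier2 gave -1.12 to -0.36 and Fosb -0.72 to -0.17, so 5 of the 10 genes were lower in 4 of 4 such pairs, beside 24.2% of all genes. Ier3 was higher in 4 of 4, at 3.11 to 4.42, beside 19.9% of all genes. From 4 h to 18 h Fos, Dusp1, Ier2, Btg2 and Atf3 were higher in 4 of 4 pairs, beside 19% of all genes.

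The strains were compared next, to ask whether IL-4 acted differently on these genes in Balb/c. No member had a strain difference of the IL-4 effect that passed the test at 4 h or at 18 h; limma called 0% of all genes in either test, with 455 and 989 genes at an unadjusted p under 0.05, none of the 10 members among them, and 0 to 5 and 0 to 9 genes called over the alternatives. The 4 h effect in Balb/c minus that in C57BL6 was 0.60 ± 0.52 log2 units for Fos (95% interval -0.60 to 1.80), 0.71 ± 0.64 for Dusp1 (interval -0.76 to 2.18) and -0.87 ± 0.44 for Ier3 (interval -1.87 to 0.13). The widest interval was that of Egr1, from -2.07 to 4.32. In mock cells no member was called between the strains, where 5.37% of genes were, and 2 of the 10, Fos and Ier3, had an unadjusted p under 0.05, a share close to the 20.1% of all genes. Ier3 stood 0.78 ± 0.31 log2 units higher in Balb/c mock (limma adjusted p = 0.207). As said for Fos, the mock arrays of the strains shared no slide.

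Other genes of the early response were read from lists to set the group in its pathway. The lists were chosen with earlier results of these data known, so their counts beside those of all genes are a description. Of 15 AP-1 partners and relatives, 3 rose and 0 fell at 4 h in C57BL6, beside 1.6% and 1.76% of all genes. The median log2 change there was 0.29 beside -0.04 for all genes. In Balb/c 2 rose and 0 fell, beside 0.95% and 0.472%. Batf3, a leucine zipper partner of Jun proteins, rose 15.2-fold in C57BL6 (3.93 ± 0.45 log2 units, limma adjusted p = 0.00523) and 14.1-fold in Balb/c (3.82 ± 0.45, limma adjusted p = 0.0107). Fosl2, a Fos family member that lacks the strong activation domain of Fos, rose 5.15-fold in C57BL6 (2.37 ± 0.28 log2 units, limma adjusted p = 0.00528) and 2.94-fold in Balb/c (1.56 ± 0.28, limma adjusted p = 0.0442). Its levels were -0.95 and -0.97 in C57BL6 mock and 1.26 and 1.56 at 4 h, so within the Fos family Fosl2 rose where Fos fell. Both genes were also called higher at 18 h in each strain. Batf rose at 4 h in C57BL6 by 1.26 ± 0.22 (limma adjusted p = 0.025). Batf2 fell at 18 h, by 0.88 ± 0.17 log2 units in C57BL6 (limma adjusted p = 0.0253) and 0.96 ± 0.17 in Balb/c (limma adjusted p = 0.0192), and Maf fell at 18 h in C57BL6 by 1.34 ± 0.24 (limma adjusted p = 0.0208).

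Of 6 tested EGR and nuclear receptor early genes, 1 rose and 1 fell at 4 h in C57BL6, beside 1.6% and 1.76% of all genes. In Balb/c 1 rose and 0 fell, beside 0.95% and 0.472%. The one that rose was Egr2, a zinc finger factor related to Egr1. Its level went from 1.64 and 2.22 in C57BL6 mock to 5.53 and 6.05 at 4 h, a 14.5-fold rise (3.86 ± 0.48 log2 units, limma adjusted p = 0.0063), and from 2.35 and 1.40 to 5.45 and 4.46 in Balb/c (8.46-fold, limma adjusted p = 0.0246). It was called higher at 18 h as well, by 14.4-fold in C57BL6 and 6.36-fold in Balb/c (limma adjusted p = 0.00457 and 0.021). Nr4a1 (Nur77), an orphan nuclear receptor and classical early gene, fell at 4 h in C57BL6 by 1.93 ± 0.29 log2 units (limma adjusted p = 0.0126), and its change in Balb/c was -1.53 ± 0.29 (limma adjusted p = 0.0522, or 0.0449 with the block). Nab1, a corepressor of EGR proteins, fell at 18 h in C57BL6 by 0.85 ± 0.15 (limma adjusted p = 0.0206).

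Of 34 other early response genes tested, 5 rose and 5 fell at 4 h in C57BL6, beside 1.6% and 1.76% of all genes. In Balb/c 3 rose and 0 fell, beside 0.95% and 0.472%. Hbegf, a membrane-bound EGF receptor ligand, rose 23.4-fold in C57BL6 and 16.2-fold in Balb/c at 4 h (limma adjusted p = 0.00139 and 0.00442). With normexp its 4 h change was 3.04-fold and 5.21-fold, and it was called in none of the 4 comparisons with mock (limma adjusted p = 0.333 to 0.675). Nfil3, a leucine zipper repressor, rose 7.55-fold and 6.45-fold (limma adjusted p = 0.000381 and 0.00113), and Klf4, a zinc finger factor of alternative activation, 3.20-fold and 4.43-fold (limma adjusted p = 0.0327 and 0.022). These 3 genes were called higher at 18 h too, in both strains. Ier5l rose at 18 h in C57BL6, 4.31-fold (limma adjusted p = 0.0132). Sgk1, a serum-induced kinase, fell at 4 h in C57BL6 by 2.06 ± 0.31 log2 units (limma adjusted p = 0.0125), and Rgs2, which restrains G protein signals, by 1.37 ± 0.24 (limma adjusted p = 0.0231) there and by 1.44 ± 0.24 at 18 h in Balb/c (limma adjusted p = 0.0152).

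The list of feedback inhibitors of the MAP kinase pathway leaves out Dusp1, which is a member of the group and is described above. Within this list only Spry2 and Spry3 were called against mock, both lower. Spry3 gave the only call of the list in Balb/c at 4 h and the only one at 18 h in each strain. Of 14 tested phosphatase and Sprouty genes, 0 rose and 2 fell at 4 h in C57BL6, beside 1.6% and 1.76% of all genes. In Balb/c 0 rose and 1 fell, beside 0.95% and 0.472%. The medians were -0.64 and -0.34 log2 units beside -0.04 and 0.02 for all genes. Spry2 went from 0.68 and 0.72 in C57BL6 mock to -1.98 and -1.84 at 4 h, a fall of 2.61 ± 0.52 log2 units (limma adjusted p = 0.0359). The Balb/c change was -1.73 ± 0.52 (limma adjusted p = 0.213, or 0.0149 with replicate number as a block). Spry3 was well above background on all 4 mock arrays but on none of the 8 arrays with IL-4. It entered the test through its mock arrays alone, so lower was the only call against mock open to it. Measured against the lowest signal called well above background, it was at least 2.14-fold lower at 4 h in C57BL6 and at least 2.31-fold lower in Balb/c. The limma tests (adjusted p = 0.0125 and 0.0139) were of differences of -2.70 and -3.15 log2 units, not of these bounds. Those differences include signal that was not well above background. With normexp the Balb/c difference turned to 0.40 log2 units (limma adjusted p = 1), and the C57BL6 call was lost with normexp (0.664), with quantile scaling (0.0725) and on leaving out any of the 4 arrays.

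Of 25 tested upstream kinases and SRF, ELK and CREB factors, 0 rose and 2 fell at 4 h in C57BL6, beside 1.6% and 1.76% of all genes. None was called in Balb/c, beside 0.95% higher and 0.472% lower. The medians were -0.04 and -0.08 log2 units. With replicate number as a block Elk3 and Rps6ka5 were called lower in Balb/c at 4 h too (limma adjusted p = 0.0366 and 0.0147). Elk3, a ternary complex factor that works with SRF, fell by 1.17 ± 0.18 at 4 h (limma adjusted p = 0.0126) and by 1.28 ± 0.18 at 18 h in C57BL6 (limma adjusted p = 0.00706). Rps6ka5 (MSK1), a histone and CREB kinase, fell by 1.15 ± 0.21 at 4 h there (limma adjusted p = 0.0286), and Rps6ka3 (RSK2) rose by 1.09 ± 0.22 at 18 h (limma adjusted p = 0.0297). Of the 11 heat shock and stress genes tested, 1 fell at 4 h in each strain, beside 1.76% of all genes in C57BL6 and 0.472% in Balb/c. Hmox1, heme oxygenase, fell by 1.04 ± 0.14 in C57BL6 (limma adjusted p = 0.00903) and 0.91 ± 0.14 in Balb/c (limma adjusted p = 0.0254). None of the 4 other BTG and TOB genes, the family of Btg2, passed the test against mock.

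With 2 arrays a group, many of these calls hang on single arrays. Of the 45 calls against mock of the 20 genes just named, 13 were kept whichever array was left out: Nfil3 and Hbegf in all 4 comparisons, Batf3 at 4 h in both strains and at 18 h in C57BL6, Egr2 at 18 h in C57BL6 and Klf4 at 18 h in Balb/c. Another 19 were lost whichever of the 4 arrays was left out, among them Nr4a1, Sgk1, Spry2 and Klf4 at 4 h in C57BL6. For the remaining 13 it depended on the array. With normexp 34 of the 45 were lost or reversed, among them all 4 of Hbegf and Batf3 at 4 h in Balb/c, and with median scaling 11. With replicate number as a block all 45 were called and 21 more: 3 at each time in C57BL6, 8 at 4 h in Balb/c and 7 at 18 h. The 8 at 4 h in Balb/c were Batf and Ier5l, higher, and Nr4a1, Sgk1, Rgs2, Spry2, Elk3 and Rps6ka5, lower.

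**Figure D4:**
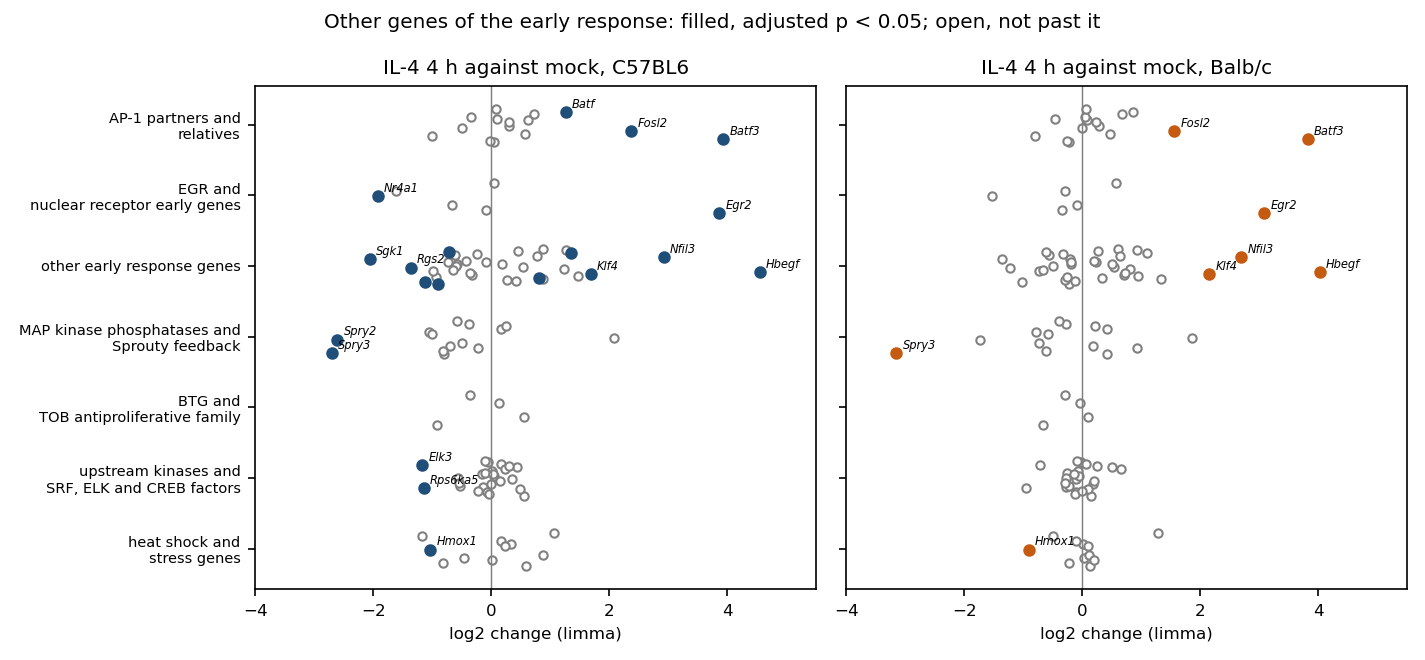
Log2 change at 4 h of IL-4 against mock for the other early response genes, by list, in C57BL6 (left) and Balb/c (right). Filled points passed an adjusted p of 0.05, names mark those described in the text, and vertical scatter within a list only separates points. Batf3, Egr2, Nfil3 and Hbegf lie to the right of 2.5 in both panels, and Spry3, whose true change is only bounded, lies below -2.5 in both.

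The genes whose levels ran most like those of Fos over the 12 arrays, among 14051 genes with a symbol, were Irf2bpl (Pearson r = 0.981), Abhd10 (0.976) and Lonrf3 (0.973). For Ier3 they were Nfil3 (0.982), Wdfy2 (0.981) and Pecam1 (0.979). These are descriptions over arrays that share groups.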

How the data were processed

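Messenger RNA was measured on 12 one-colour Agilent arrays, 2 in each of 6 groups. Per the file headers, the deposited scanner files, written by Agilent Feature Extraction 9.5.1.1, hold intensity in linear units: a raw signal with local background and a processed, background-subtracted signal. The authors also deposited a linear ratio per probe without a stated denominator. Over 21164 probes the values settled it as scaled signal over the mean of both C57BL6 mock arrays (SD of the log2 difference 0.0015 to 0.0042), with column medians of 0.936 to 1.132.

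From the deposited intensity the log2 processed signal was taken, control and outlier spots were left out, spots of a probe averaged and each array's 75th percentile subtracted. Probes well above background on both arrays of a group were kept, 27371 of 41174. Names came from accessions for 17628, current symbols for 3977, older symbols for 1871 (RefSeq, GRCm38.p6), and the scanner file for 3895. The brightest probe stood for its gene. Means of the 6 groups entered a linear model (limma 3.58.1, R 4.3.3, 6 residual and 2.03 prior degrees of freedom), with Benjamini-Hochberg adjustment over 18426 genes, a threshold of 0.05 and no fold limit, for 9 comparisons. The fit was tested on simulated data. Promoters were searched with Python 3.11.15.

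The series text describes 2 independent experiments with different littermates but does not state that a replicate number is an experiment. Replicate differences correlated between the groups of a strain at 0.155 to 0.653 over all genes, so the numbers were read as pairs and a fit with replicate number within strain as a block is given where it changed the call of a member, and for list genes as counts with examples. Slide and number overlap in part. So do slide and strain: both Balb/c mock arrays were on slide 1 and the C57BL6 mock arrays on slides 2 and 3. The correlations of 0.622 (C57BL6 mock and 4 h) and 0.653 (Balb/c 4 h and 18 h) were between groups laid out on the same slides. Slide and pairing cannot be told apart there. Between groups laid out differently the correlations were 0.155 to 0.501. The members and lists were chosen with earlier results of these data known. Named were all members, up to 6 called genes per list, and for likeness Fos and members called at least 2 times. Alternatives were median or quantile scaling, normexp with an offset of 50, the deposited ratios, other filters, every probe, only the arrays compared, both blocks, and leaving out each array.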

Additional observations from a re-analysis of the deposited data

How the results depend on the processing

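No called change of a member reversed under an alternative, and Ier3 kept its 4 calls except in Balb/c at 4 h with normexp (limma adjusted p = 0.121) and, when the fit held only the arrays compared, in Balb/c at 4 h (0.376) and 18 h (0.127). At 4 h in C57BL6, 3 members were called, 1 with normexp, 1 with only the arrays compared, 2 without a filter, 4 with the slide block (Ier2, 0.0251), 5 with the replicate block, and 1 to 2 when an array was left out. At 18 h in C57BL6 the count was 1, 3 with the replicate block and 2 with the slide block. At 4 h in Balb/c it was 2, 0 with normexp, 1 without a filter, 0 with only the arrays compared, 3 with the slide block (Ier2, 0.0393), 4 with the replicate block, and 1 to 2 when an array was left out. At 18 h in Balb/c it was 1, 0 with only the arrays compared and 2 with the replicate block. From 4 h to 18 h in C57BL6 it was 0, and 1 with median scaling, with the filter on all 12 arrays and with the replicate block. In Balb/c it was 0, 2 with the replicate block, and 0 to 1 when an array was left out, the 1 being Fos without 4 h replicate 2 (limma adjusted p = 0.0429). Between the mock strains it was 0, and 1 with median scaling (Fos, 0.0459), with the filter on all 12 arrays (Fos, 0.047) and with the slide block (Ier2, 0.0415). Fos at 4 h lost its call with normexp (limma adjusted p = 0.0573 in C57BL6, 0.403 in Balb/c) and with only the arrays compared (0.0541 and 0.555), and in Balb/c without a filter (0.0796). Dusp1 in C57BL6 lost it with normexp (0.241), without a filter (0.0591) and with only the arrays compared (0.0557). Fits on only 4 arrays and leave-one-out fits have fewer arrays, and of the other losses the cause was not tested. Over all genes the counts ran from 24 to 3077, 130 to 3241, 0 to 1313 and 17 to 2727 in the 4 comparisons with mock, in the order C57BL6 4 h, C57BL6 18 h, Balb/c 4 h and Balb/c 18 h, with the highest count from the replicate block each time. From 4 h to 18 h they ran from 0 to 1260 in C57BL6 and 0 to 1027 in Balb/c, between the mock strains from 30 to 1555, and for the strain difference of the effect from 0 to 5 at 4 h and 0 to 9 at 18 h. With the replicate block 16.7% of all genes were called at 4 h and 17.6% at 18 h in C57BL6. In Balb/c they were 7.13% and 14.8%. Without a block, in the same order, 1.6% were higher and 1.76% lower, 1.69% and 2.77%, 0.95% and 0.472%, and 1.39% and 2.44%. The larger member counts with this block thus came with larger counts of all genes. For the other settings only the ranges above are given, so their member counts cannot be weighed against all genes here. The mock strains were not compared with the replicate block, since litters are nested in strain. Among the list genes 1 called change reversed: Spry3, near background, went from -3.15 at 4 h in Balb/c to 0.40 log2 units with normexp. Of the 45 calls of list genes, 34 were lost or reversed with normexp, 34 with only the arrays compared, 15 without a filter, 11 with median scaling (Batf, Batf2, Elk3, Hmox1, Nab1, Rgs2, Rps6ka3 and Spry3), 4 with the slide block, 3 with quantile scaling (Spry3), and 0 with the deposited ratios, with every probe or with the replicate block. On each slide that held both groups, the called members kept their direction. This had to hold, since the replicates of the groups compared did not overlap for any of these calls.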

Other observations

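Over the 12 arrays the levels of Ier3 ran against those of Fos and Dusp1, with Pearson correlations of -0.738 and -0.813, as a description of arrays that share groups. Within a group, the replicate with more Fos was also the one with more Dusp1 in 5 of the 6 groups, and the one with more Btg2 in 1 of the 6. Such a match was not particular to Fos and Dusp1. Fosb and Junb, Egr1 and Ier2, and Atf3 and Btg2 matched in 6 of the 6, Fos and Jun in 5, and Jun and Atf3 in 0. Replicate differences correlate between the groups of a strain, so the 6 groups are not independent.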
